A study of Sus scrofa with 6 samples.

Results

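The miR-23, miR-27 and miR-24 microRNAs (miRNAs) are made from a pair of gene clusters, and 8 of the 898 miRNAs listed for pig skin belong to them. They were chosen by name, as the products of miR-23a, miR-23b, miR-27a, miR-27b and miR-24 with a porcine (ssc-) name, which 280 of the listed miRNAs carry. The libraries are small RNA from skin of Xiang pigs, a Chinese breed, with the hair removed and the tissue kept frozen in RNAwait. There were 3 libraries of white skin (S02, S06 and S07) and 3 of black skin (S03, S04 and S05), with no other treatment, and the series asks which miRNAs and genes bear on melanin formation. The labels give no genotype, age, sex, body site or animal, and they do not say that libraries of a group came from separate pigs, so a p-value here reflects how far these samples vary, which may be technical variation alone. Skin is a mixture of cell types, and fewer cells of a type and less RNA per cell cannot be told apart in it.

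A miRNA is cut from a hairpin precursor whose arms, 5p and 3p, give separate products, one of which is usually kept and the other mostly degraded. It pairs with messenger RNAs mainly through its seed, a short stretch near its 5′ end, and lowers their translation and stability. The paralogues miR-23a and miR-23b share a seed, as do miR-27a and miR-27b, and the paralogues are so alike that reads can be exchanged between them. The 3p product of miR-24 is the same from both of its precursors, so the 5p arms are what tells these precursors apart. The family is known from blood vessels, where miR-23 and miR-27 act on angiogenesis, from fat cells, where miR-27 holds back PPARG and differentiation, and from muscle and immune cells. In mouse melanocytes miR-27a-3p has been described as a regulator of WNT3A, a signal that promotes pigment cells.

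In the RefSeq annotation of Sscrofa11.1 the precursors fall into 2 groups of 3. On chromosome 2, MIR23A lies at 65308117 to 65308186, MIR27A at 65308294 to 65308375 and MIR24-1 at 65308453 to 65308524, together spanning 408 bp. No annotated gene holds this cluster. The nearest annotated neighbours are ZSWIM4, 2674 bp beyond MIR24-1, and MIR181C, 28081 bp before MIR23A. On chromosome 10, MIR24-2 lies at 27079417 to 27079496, MIR27B at 27079963 to 27080042 and MIR23B at 27080197 to 27080276, a span of 860 bp. All 3 lie within the protein-coding gene C10H9orf3, whose human counterpart encodes aminopeptidase O. The numbers of the miR-24 copies are swapped relative to the human names, so in the pig miR-24-1 goes with miR-23a and miR-27a, and miR-24-2 with miR-23b and miR-27b. By these names 3 members belong to the chromosome 2 cluster, 4 to the chromosome 10 cluster, and 1, ssc-miR-24-3p, to both.

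**Figure D1:**
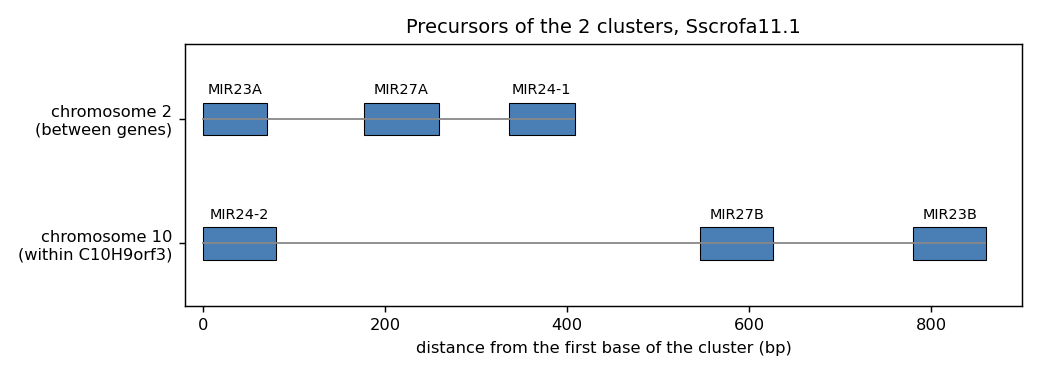
Position of the 6 precursors in the 2 clusters, in bp from the first base of each cluster, drawn to scale as boxes. The chromosome 2 cluster spans 408 bp and the chromosome 10 cluster 860 bp, and miR-23, miR-27 and miR-24 follow in the same order, read from opposite ends.

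Levels are given in RPM, reads scaled to the same total of listed miRNA reads in each library, in libraries of 6454685 (S06) to 10165949 (S07) reads. White library S02 stood apart from the other white libraries for some members, and results that turn on it are given with and without it. Black and white skin were compared on log2(RPM + 1) with limma over all 454 miRNAs that passed a filter on low reads, and a call is a Benjamini-Hochberg adjusted p under 0.05. All 8 members passed the filter, with 299 to 871092 reads per library, so counting error was small beside the spread between libraries. Of all 454, 3.96% were called higher and 3.08% lower in black skin. With predicted miRNAs left out before scaling, 16 of the 242 then tested were called higher and 19 lower, against 18 and 14 of the 454 here. Of the 8 members, 2 rose (ssc-miR-27a and ssc-miR-24-2-5p), 0 fell and 6 did not pass. At an unadjusted p under 0.05 limma had 4 members higher and 0 lower, where 116 of the 454 (25.6%) passed in either direction, and edgeR and DESeq2 also called 0 lower. In 5 of the 8 the black libraries all lay above the white ones, as for 13.4% of all 454. The median difference was 0.47 over the members and 0.00 over all 454 (log2 scale).

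The members' levels spread over 3 tiers. ssc-miR-27b-3p, from chromosome 10, held 9.02% of all listed reads on average, which made it the third most abundant named miRNA, and 73.9 to 79.5% of the reads of the 8 members. The main arms ssc-miR-27a, ssc-miR-23a, ssc-miR-23b and ssc-miR-24-3p followed at 0.854, 0.758, 0.587 and 0.415% of reads. The neighbours in this order were close. In particular, ssc-miR-27a lay below ssc-miR-23a in each white library and above it in each black one. The minor 5p arms ssc-miR-24-1-5p, ssc-miR-27b-5p and ssc-miR-24-2-5p averaged 308, 136 and 119 RPM, and the ranges of the last 2 over libraries overlapped. Levels of different miRNAs also carry the unequal efficiency of adapter ligation, which drops out of a comparison of the same miRNA, or the same ratio, between libraries.

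**Figure D2:**
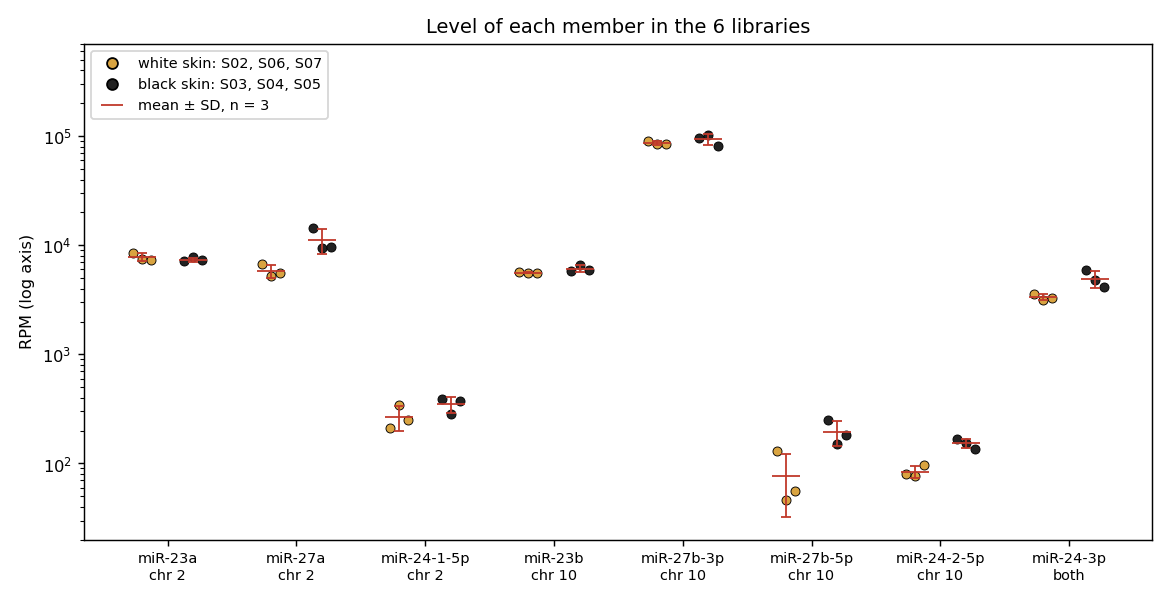
RPM of the 8 members in each library on a log axis, white skin left and black skin right of each name, with the mean and SD of 3 libraries. ssc-miR-27b-3p lies between 80834 and 102220 RPM in all libraries. ssc-miR-27a, ssc-miR-27b-5p, ssc-miR-24-2-5p, ssc-miR-24-3p and, by little, ssc-miR-23b are higher in every black than in any white library.

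From the chromosome 2 cluster, ssc-miR-27a was higher in black skin. White S02, S06 and S07 gave 6732, 5208 and 5611 RPM. Black S03, S04 and S05 gave 14552, 9480 and 9651 RPM. The lowest black library was well above the highest white one, and S03 was the highest of all. The white mean was 5851 ± 790 RPM and the black mean 11228 ± 2880 RPM (SD, n = 3), which is 1.92 times as high. The log2 difference of 0.92 had a standard error of 0.21 and a 95% interval of 0.45 to 1.38 (limma, adjusted p = 0.0324). Leaving out S02 kept the call (adjusted p = 0.0308), and it was lost without S03 (0.107), S04 (0.0704), S05 (0.0822), S06 (0.116) or S07 (0.0786).

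ssc-miR-23a, whose precursor lies next to that of miR-27a, was near level between the groups. Its levels were 8512, 7484 and 7290 RPM in S02, S06 and S07. The black libraries S03, S04 and S05 gave 7119, 7741 and 7308 RPM. The groups overlapped, and the means, 7762 ± 656 RPM for white and 7389 ± 319 RPM for black libraries, were closer than the spread of the white libraries (SD, n = 3). The log2 difference was -0.07 (limma, adjusted p = 0.821), with a 95% interval that allows a level in black skin between 0.755 and 1.20 times that in white skin. The lower bound for ssc-miR-27a on the same scale was 1.37 times.

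The third product of this cluster, ssc-miR-24-1-5p, is the minor arm of its precursor. White S02, S06 and S07 gave 210, 342 and 250 RPM, and black S03, S04 and S05 gave 389, 285 and 371 RPM. White S06 lay above black S04, so the groups overlapped. The log2 difference was 0.40 with a standard error of 0.24 and did not pass (limma, adjusted p = 0.347). It was 0.24 without S02 (adjusted p = 0.579) and 0.59 without S06 (0.229). Its 95% interval, 0.905 to 1.91 times, overlaps those of both of its cluster neighbours.

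In the chromosome 10 cluster the main arms were near level between the groups. ssc-miR-27b-3p measured 90749, 84511 and 85687 RPM in S02, S06 and S07. S03, S04 and S05 gave 96982, 102220 and 80834 RPM. The black libraries lay on both sides of the white ones, with the highest and the lowest value of all. The log2 difference of 0.10 (standard error 0.15) did not pass (limma, adjusted p = 0.754) and had a 95% interval of 0.846 to 1.35 times.

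ssc-miR-23b had the tightest white group of all members. It measured 5703, 5619 and 5555 RPM in S02, S06 and S07, with a coefficient of variation of 1.32%. Black skin gave 5810 (S03), 6622 (S04) and 5881 RPM (S05). The black libraries all lay above the white ones, but by little, with S03 only just above S02. The difference was 0.12 on the log2 scale with a standard error of 0.15, and it did not pass (limma, adjusted p = 0.718, 95% interval 0.861 to 1.36 times).

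The minor arms of the same cluster gave larger log2 differences than its main arms. For ssc-miR-24-2-5p S02, S06 and S07 gave 79.4, 76.5 and 96.4 RPM, and S03, S04 and S05 gave 169, 155 and 137 RPM. The groups were well apart, and the lowest black library exceeded the highest white one. It rose by 0.86 with a standard error of 0.21 (limma, adjusted p = 0.0423), or 1.82-fold. This call stood close to the threshold and was lost without each of the 6 libraries in turn (adjusted p from 0.0642 without S07 to 0.167 without S03), and with edgeR (0.0679), limma-voom (0.0664), TMM factors (0.0567), RLE factors (0.0571) or no filter (0.0884).

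ssc-miR-27b-5p had the largest log2 difference of the 8 members and the widest error. It measured 129, 46.3 and 56.3 RPM in S02, S06 and S07. Levels in black S03, S04 and S05 were 248, 152 and 182 RPM. The groups did not overlap, but S02 was closer to black S04 than to the other white libraries. The white mean was 77.2 ± 45.1 RPM and the black mean 194 ± 49.2 RPM (SD, n = 3). The log2 difference of 1.44 (standard error 0.38) was not called (limma, adjusted p = 0.0537). It was called without S02 (1.88, adjusted p = 0.00588), with DESeq2 (0.0105), with TMM factors (0.0446) and with predicted miRNAs left out (0.0391). The difference stayed uncalled in 7 of the 10 other scalings, filters, pseudocounts and tests, such as edgeR (adjusted p = 0.0795). It was also uncalled in 5 of the 6 fits without 1 library (limma, adjusted p up to 0.169, without S06).

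The product of both clusters, ssc-miR-24-3p, is the main arm of miR-24, described as a brake on cell division and on apoptosis. Levels were 3582 (S02), 3184 (S06) and 3269 RPM (S07) for white and 5928 (S03), 4804 (S04) and 4108 RPM (S05) for black libraries. Each black library was above each white one. The difference of 0.55 with a standard error of 0.18 did not pass (limma, adjusted p = 0.106, 95% interval 1.11 to 1.94 times). The interval is not adjusted for the number of miRNAs tested, and from this arm alone the share of either cluster cannot be told apart.

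**Figure D3:**
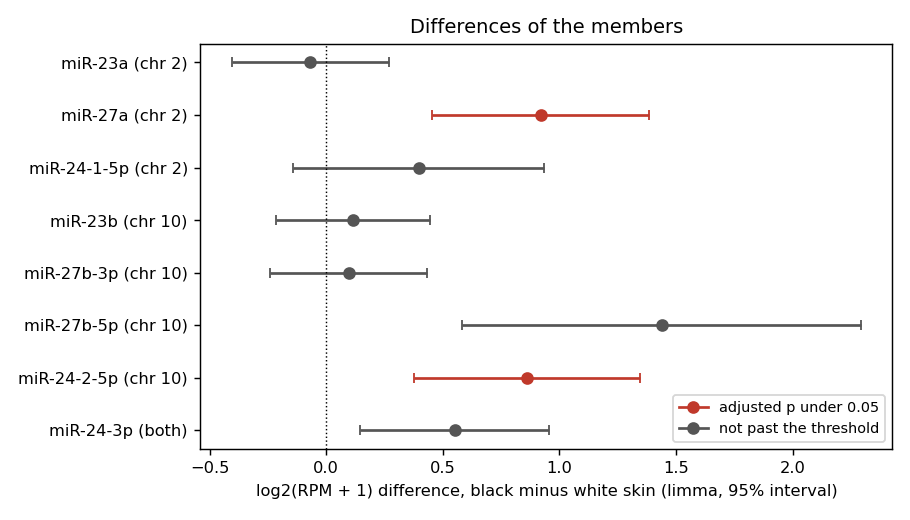
Difference of each member between black and white skin on the log2(RPM + 1) scale with its 95% interval, unadjusted, from limma over 454 miRNAs (3 libraries a group). The 2 calls are in red, and ssc-miR-23a, ssc-miR-23b and ssc-miR-27b-3p lie close to 0 with narrow intervals.

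Ratios taken within a library do not depend on scaling, and 5 of them were tested by exact permutation of the libraries (two-sided), which cannot give a p below 0.1 here. Within the chromosome 2 cluster the ratio of ssc-miR-27a to ssc-miR-23a was 0.791, 0.696 and 0.770 in S02, S06 and S07. It was 2.04, 1.22 and 1.32 in S03, S04 and S05. All white libraries were below 1 and all black ones above 1. The mean log2 ratio was -0.41 ± 0.10 in white skin (SD, n = 3). Black skin had a mean of 0.57 ± 0.40 (SD, n = 3), a difference of 0.99 (exact permutation p = 0.1, adjusted over the 5 ratios 0.167).

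Within the chromosome 10 cluster the ratio of the corresponding products overlapped between the groups. ssc-miR-27b-3p exceeded ssc-miR-23b 15.9-fold, 15.04-fold and 15.4-fold in S02, S06 and S07. The ratio in S03, S04 and S05 was 16.7, 15.4 and 13.7. The mean log2 ratio was 3.95 ± 0.04 for white libraries and 3.93 ± 0.14 for black ones (exact permutation p = 0.9, adjusted 0.9; SD, n = 3). The sign of this difference, -0.02, turned without S02 or without S05, so no direction can be given.

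Between the clusters, ssc-miR-27a made up a larger part of the miR-27 reads in each black library. Of the reads of the main miR-27 arms, ssc-miR-27a held 6.91, 5.81 and 6.15% in S02, S06 and S07. Black S03, S04 and S05 gave 13.05, 8.49 and 10.7%. The log2 ratio of miR-27a to miR-27b-3p was 0.82 higher in black skin (exact permutation p = 0.1, adjusted 0.167).

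The ratio of ssc-miR-23a to ssc-miR-23b differed little and the other way. It was 1.49, 1.33 and 1.31 in S02, S06 and S07, and 1.23, 1.17 and 1.24 in S03, S04 and S05. The black libraries were lower without overlap, by -0.18 on the log2 scale (exact permutation p = 0.1, adjusted 0.167). For the minor arms, the ratio of ssc-miR-24-2-5p to ssc-miR-24-1-5p was 0.378, 0.224 and 0.385 in S02, S06 and S07, and 0.434, 0.543 and 0.369 in S03, S04 and S05. Here the groups overlapped (difference 0.47, exact permutation p = 0.3, adjusted 0.375), so a shift between the miR-24 precursors was not seen beyond the spread. This difference was 0.21 without S06, 0.32 without S04 and 0.60 without S07.

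The arm ratio of a hairpin compares its 3p with its 5p product, and it was tested with limma over 43 arm pairs, of which 11.6% were called. ssc-miR-27b was the 1 call among the 3 pairs of the members. Its 3p arm outnumbered the 5p arm 704-fold, 1824-fold and 1523-fold in S02, S06 and S07. The excess in S03, S04 and S05 was 391-fold, 672-fold and 443-fold. S02 was only a little above S04, and the other white libraries were far above all black ones. The log2 ratio, 10.27 ± 0.72 for white libraries and 8.92 ± 0.41 for black ones (SD, n = 3), fell by 1.34 with a standard error of 0.40 (limma, adjusted p = 0.0376). The call was lost with a pseudocount of 0.1 (adjusted p = 0.0601) or 10 (0.0611) and without S03 (0.102), S05 (0.121), S06 (0.0588) or S07 (0.179). It was kept without S02 (log2 difference -1.75, limma adjusted p = 6.78e-05) and without S04 (-1.57, 0.0207).

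For miR-24 the shared 3p arm was set against each 5p arm. It exceeded ssc-miR-24-2-5p 33.9-fold to 45.1-fold in white and 30.0-fold to 35.2-fold in black skin, with overlap (log2 difference -0.31, standard error 0.22, limma adjusted p = 0.372). It exceeded ssc-miR-24-1-5p 9.30-fold to 17.0-fold in white and 11.06-fold to 16.9-fold in black skin (0.15, standard error 0.25, adjusted p = 0.769). Neither ratio passed, although ssc-miR-24-2-5p itself did.

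**Figure D4:**
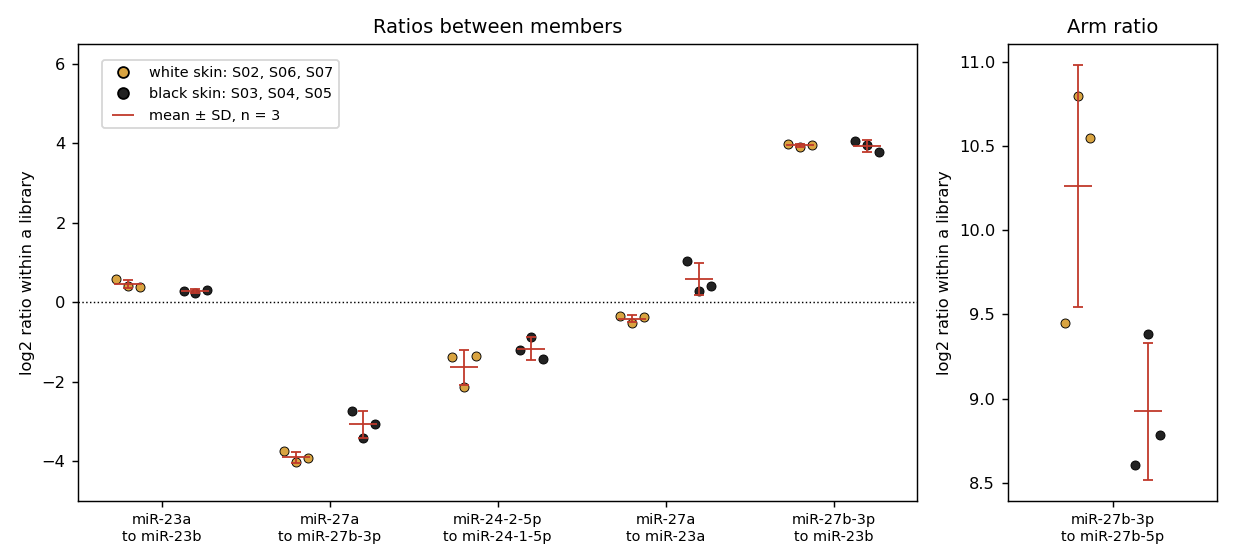
Log2 ratios within each library for 5 pairs of members (left) and for the arms of miR-27b (right, axis not from 0), with mean and SD of 3 libraries a group. The ratio of miR-27a to miR-23a is below 0 in the white and above 0 in the black libraries, that of miR-27b-3p to miR-23b overlaps, and the arm ratio of miR-27b is lower in each black library.

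Summed by cluster, with ssc-miR-24-3p left out, the chromosome 2 members held 1.55, 1.30 and 1.32% of the reads in S02, S06 and S07, and 2.21, 1.75 and 1.73% in S03, S04 and S05. The groups did not overlap (exact permutation p = 0.1, adjusted over 8 sums 0.2), and the higher sum came from ssc-miR-27a, since ssc-miR-23a was not higher. The chromosome 10 members held 9.28 ± 0.34% of the reads in white and 9.98 ± 1.14% in black libraries, with overlap (exact permutation p = 0.4, adjusted 0.457; SD, n = 3). Summed by family, miR-23a and miR-23b together held 1.34 ± 0.07% and 1.35 ± 0.08% (exact permutation p = 0.7, adjusted 0.7; SD, n = 3), and the main miR-27 arms 9.28 ± 0.41% and 10.5 ± 1.22% (exact permutation p = 0.3, adjusted 0.4; SD, n = 3). All 8 members held 10.6 to 11.6% of the reads in white and 10.8 to 13.1% in black libraries, with overlap (exact permutation p = 0.2, adjusted 0.32). Without ssc-miR-27b-3p they held 2.30 ± 0.17% in white and 3.04 ± 0.34% in black libraries, without overlap (exact permutation p = 0.1, adjusted 0.2; SD, n = 3). Most of this higher sum also came from ssc-miR-27a (means of 5851 RPM in white and 11228 RPM in black libraries).

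**Figure D5:**
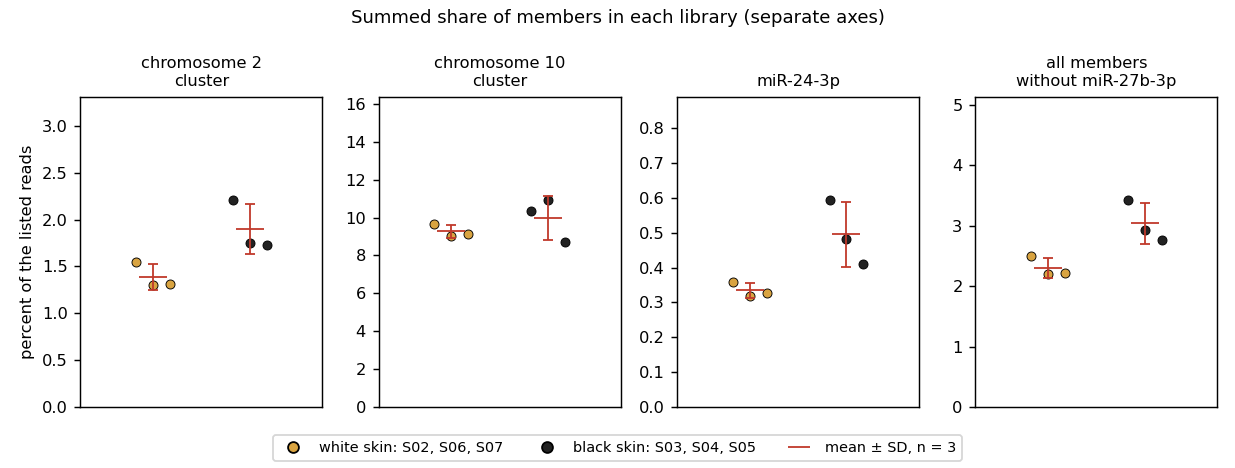
Percent of the listed reads held in each library by the members of each cluster, by ssc-miR-24-3p and by all members other than ssc-miR-27b-3p, with mean and SD of 3 libraries and a separate axis from 0 for each sum. The sums of the chromosome 2 cluster are higher in each black library, while those of the chromosome 10 cluster overlap.

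The miRNAs whose pattern was most like a member's were sought among 179 other named miRNAs with a mean of at least 10 RPM, by Pearson r of log2(RPM + 1) over the 6 libraries. These r are descriptions over few points that share the gap between the groups. ssc-miR-27a was most like ssc-miR-192 (r = 0.968), ssc-miR-22-5p (0.961) and the smooth muscle miRNA ssc-miR-143-3p (0.955). ssc-miR-24-3p was also most like ssc-miR-192 (0.959), then ssc-miR-132 (0.939) and ssc-miR-28-5p (0.930). ssc-miR-24-2-5p was most like ssc-miR-32 (0.990), ssc-miR-28-5p (0.985) and the endothelial ssc-miR-126-3p (0.983). For ssc-miR-27b-5p the closest were ssc-miR-145-3p (0.990), ssc-miR-92b-3p (0.988) and ssc-miR-374a-3p (0.970), and for ssc-miR-24-1-5p ssc-miR-455-5p (0.909), ssc-miR-96-5p (0.832) and ssc-miR-204 (0.801).

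The main arms with near level groups resembled other miRNAs. ssc-miR-23a was most like ssc-miR-125b (0.983), ssc-miR-127 (0.967) and ssc-miR-500 (0.923). ssc-miR-27b-3p was most like ssc-miR-450b-5p (0.821), ssc-miR-148b-3p (0.771) and ssc-miR-769-5p (0.759). ssc-miR-23b shared the first of these (0.824), beside ssc-miR-542-3p (0.855) and ssc-miR-331-3p (0.793).

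Some rows of the endothelial, smooth muscle and leukocyte marker lists were called higher in the black libraries. Of the endothelial marker, both arms of miR-126 rose, and their sum was 17322 to 23899 RPM in white and 28989 to 35451 RPM in black libraries. Of 4 smooth muscle rows 1 rose, ssc-miR-143-3p, while ssc-miR-143-5p and ssc-miR-145-5p overlapped between the groups. The sum of miR-143 and miR-145, most of it ssc-miR-143-3p, was 26728 to 34192 RPM in white and 64998 to 84502 RPM in black libraries. Of 4 leukocyte rows 1 rose, ssc-miR-142-3p, and the sums overlapped at 590 to 1321 and 901 to 1570 RPM. For the melanocyte list 1 of 2 names had a row, ssc-miR-204, at 57.7 to 71.1 RPM in white and 88.5 to 135 RPM in black libraries, which did not pass (limma, adjusted p = 0.0804). Of the rows of these 4 lists 0 values were at 0. The part of any of these cells in the members' differences was not tested.

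In the other cell type lists the sums overlapped between the groups. The labelled tissue carried its keratinocyte miRNA ssc-miR-205 at a mean of 17034 RPM, and of 9 epithelial names 2 had a row, neither called, with sums of 15361 to 23062 RPM in white and 11808 to 16941 RPM in black libraries. Of 3 erythroid rows none was called (1723 to 4914 and 994 to 4298 RPM). Of 5 mesenchymal rows 1 fell, ssc-miR-214, and the sums were 29774 to 44259 and 25075 to 34133 RPM. These sums count the same values under 2 names, since the miR-199b row for the 3p arm equalled that of miR-199a in every library. Of 5 striated muscle rows tested none was called (678 to 2017 and 959 to 1604 RPM).

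Among other miRNAs linked to angiogenesis, from a list of 25 names, 28 rows were tested, of which 2 rose, 3 fell and 23 did not pass, with a median difference of 0.07 against 0.47 for the 8 members. Those that rose were ssc-miR-126-3p (0.71, limma adjusted p = 0.0423) and ssc-miR-126-5p (0.89, 0.0423), which keep vessels intact. Those that fell were ssc-miR-221-3p (-1.24, 0.0318), the miRNA the series is named for, and the arms ssc-miR-10a-5p (-1.78, 0.000371) and ssc-miR-10a-3p (-1.67, 0.0171) from a HOX cluster. The most abundant of the list, ssc-miR-21, gave 0.19 (0.730).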

How the data were processed

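The authors deposited 1 table in RPM, which its column sums show, as they are the same for all libraries. The submitters' processing notes name Bowtie and build Sscrofa11.1 but give no role for either. For the counter, the miRNA release and the filters, no version or name is given in the sources used here. Of the values, 100% in each library were whole multiples of 1 read (tolerance 0.001), so reads were recovered, and 3 reads, which a count of 0 still allows, are 0.295 to 0.465 RPM, counting error only. RPM are shares, so an abundant miRNA that changes shifts all others.

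Members and lists were chosen with earlier results of these data known, and all members and the called and the 2 most abundant angiogenesis-linked miRNAs are named, with the 3 most like each member. The search for other miRNAs with a shared seed was not run, since no sequence table was used here. limma 3.58.1 (R 4.3.3) with an intensity trend was fitted to log2(RPM + 1), black minus white, over the 454 of 898 miRNAs kept by the filterByExpr function of edgeR 4.0.16 (minimum count 10, minimum total 15), with no covariate. Arm pairs were fitted in the same way, and single ratios and sums with an exact permutation test. The limma step was checked on simulated data. Values were compared with other scalings, filters, pseudocounts and tests (edgeR, which called 13 higher and 17 lower on the recovered reads, DESeq2 1.42.0 and limma-voom), and without each library. Values equal to those of another row were held by 47 rows, of which 0 were members. Between libraries the chi-square per degree of freedom was at least 165, so no library was a duplicate. Precursors were matched by name in the RefSeq gene table of Sscrofa11.1, which was used without strand.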

Additional observations from a re-analysis of the deposited data

How the results depend on the processing

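The log2 differences of ssc-miR-27a, ssc-miR-24-2-5p, ssc-miR-27b-5p and ssc-miR-24-3p stayed above 0 in all 10 other settings and in the 6 fits without 1 library, at 0.72 to 1.03, 0.77 to 0.96, 1.15 to 1.88 and 0.41 to 0.68. The number of members called higher was 1 in place of 2 with no filter, RLE factors, edgeR or limma-voom, and 3 with DESeq2 or with predicted miRNAs left out. Without 1 library it was 0 to 2, and over all miRNAs the calls higher, 18 with all libraries, numbered 23 on leaving out S02 and 3 (S05) to 9 (S04) on leaving out any other library. With TMM factors it was 2, but ssc-miR-27b-5p stood in for ssc-miR-24-2-5p. ssc-miR-27a kept its call in all 10 settings with all libraries (adjusted p up to 0.0481), and no setting called a member lower. The arm call of miR-27b was lost, leaving 0, with a pseudocount of 0.1 or 10, and without 1 library the number was 0 to 1. Without S06 the arm ratio difference of ssc-miR-24-1 turned to -0.072, in a range up to 0.363 without S02. The ratio of miR-27b-3p to miR-23b turned to 0.00121 without S02 and 0.0548 without S05, in a range from -0.0853. The cause was not tested in these cases. Leaving out predicted miRNAs moved the median of all differences from 0.00 to -0.14, and there ssc-miR-27a was at 0.83 and ssc-miR-27b-3p at 0.01. The other 4 ratios kept their sign, and the summed share stayed 0.76 to 2.13 points higher in black skin. With 3 libraries a group, permutation p-values cannot pass the threshold.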
